A study of Mus musculus with 4 samples.

Results

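The genes described here are the protein-coding genes of the mitochondrial genome, which encode core subunits of the respiratory chain. They were taken as all probes, control spots left out, whose gene name on the array is MTND1 to MTND6 (including MTND4L), MTCO1 to MTCO3, MTCYB, MTATP6 or MTATP8. This gave 9 probes for 8 genes, among 41000 probes on the array and 28302 features tested. A feature is a gene symbol, or a probe name where no symbol was given. The genes were MTND1, MTND2, MTND3, MTND4, MTND5 and MTND6 of complex I, MTCYB of complex III and MTCO1 of complex IV. The symbols not found by this rule, MTND4L, MTCO2, MTCO3, MTATP6 and MTATP8, were not analysed here. The name rule reads no measurement, but the genes were picked out as a group because of their farnesol ratios on these arrays, so those ratios are given as a description with no test of the genes.

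RNA came from the human lung carcinoma line H460, exposed to 250 µM farnesol, an isoprenoid alcohol, for 4 h, or to its vehicle dimethyl sulphoxide. Each of 2 replicate experiments paired a farnesol RNA with its matched vehicle RNA on 2 arrays with the dyes exchanged, so the 4 arrays hold 2 replicates. The organism label names the mouse, but H460 is human by the treatment protocol and so are the gene names of the probes. Nothing in the labels says how far apart the replicate experiments were, so the spread between them may be partly technical.

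Mitochondrial DNA is transcribed from both of its strands into long precursor RNAs that span many genes. These are cut, mostly at the transfer RNAs that lie between the genes, into separate messenger RNAs. The heavy-strand promoter gives the RNAs of most of the proteins, while MTND6 is the only protein gene read from the light-strand promoter. The RNA polymerase POLRMT works with the factors TFAM and TFB2M at these promoters. The encoded proteins join a larger number of nuclear-encoded subunits in complexes I, III, IV and V, and complex II is built from nuclear-encoded subunits alone.

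Per channel, 82.7% to 93.0% of probes passed the scanner's well-above-background flag, with 19 to 51 spots saturated. The turned log2 ratios of dye-exchanged arrays correlated across features at r = 0.943 in replicate 1 and 0.942 in replicate 2, and the replicate means correlated at r = 0.680. The keratins KRT8, KRT18 and KRT19, markers of epithelial cells, had signals of 63.5 to 512 times local background. Of 11 markers of leukocytes, fibroblasts and endothelium, 10 lay between 1.24 and 12.4 times background, while CD79A, a B cell marker, lay between 64.7 and 99.7 times background. The epithelial markers TACSTD1 and CDH1 lay at 3.04 to 6.12 and 1.84 to 4.43 times background.

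All 8 mitochondrial genes passed the filter on dim probes. Their 9 probes were well above background in all 8 channels, and 0 of their spots were saturated or marked as outliers by the scanner software. Their mean signals were 2.90 to 405 times local background. Turned ratios of the dye-exchanged arrays differed by 0.00016 to 0.19 on the log2 scale for these probes. Replicates differed more: for the probe standing for each gene, replicate 2 minus replicate 1 ranged from -1.23 to -0.49. All values below are log2 ratios of farnesol over vehicle unless a level is named, and each mean carries the SD over the 2 replicates (n = 2).

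Transcripts of MTND6, MTND3, MTCO1, MTCYB and MTND1 were lower after farnesol in both replicates, by 3.64-fold, 3.09-fold, 2.41-fold, 2.18-fold and 1.76-fold on average. MTND2, MTND4 and MTND5 had ratios above 0 in replicate 1 and below 0 in replicate 2. The median of the 8 genes was -0.57 in replicate 1 and -1.30 in replicate 2, and that of their means was -0.97, against 0.014 over all features. In RNA of whole cultures, fewer cells with a transcript and less of it per cell cannot be told apart.

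MTND6, the light-strand gene, encodes a membrane subunit of complex I. Its ratio was -1.61 and -1.63 on the arrays of replicate 1, with farnesol in Cy5 and in Cy3, and -2.19 and -2.03 on those of replicate 2. All 4 arrays were low, at 32.6% of the vehicle level in replicate 1 and 23.1% in replicate 2. The normalized log2 intensity was 7.98 and 7.68 in farnesol cells of replicates 1 and 2, against 9.60 and 9.80 in vehicle cells, and the conditions did not overlap. The mean ratio was -1.87 ± 0.35, and 8 of the 28302 features had a lower mean.

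MTND3, a small membrane subunit of complex I, was represented by the brighter of its probes. Its ratio was -1.12 and -1.12 on the arrays of replicate 1 and -2.12 and -2.16 on those of replicate 2. The normalized log2 intensity was 12 and 10.85 in farnesol cells, against 13.12 and 12.99 in vehicle cells. The conditions did not overlap, and farnesol cells of replicate 2 were lowest. The mean ratio was -1.63 ± 0.72. The second MTND3 probe gave -0.72 and -0.63 in replicate 1 and -0.73 and -0.71 in replicate 2. Its mean was -0.70 ± 0.03, which is 0.93 above the brighter probe, and its replicates differed by 0.048. The probes of this gene thus disagreed on the size of the difference and on the gap between replicates, but both were below 0 on all 4 arrays.

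MTCO1 encodes the catalytic subunit of cytochrome c oxidase, complex IV. Its ratio was -0.68 and -0.62 on the arrays of replicate 1 and -1.83 and -1.94 on those of replicate 2, with a mean of -1.27 ± 0.87. The normalized log2 intensity was 13.50 and 12.48 in farnesol cells, against 14.15 and 14.36 in vehicle cells, without overlap. It had the widest gap between replicates of the 8 genes, with 63.7% of the vehicle level in replicate 1 and 27.1% in replicate 2. The mean is therefore set in large part by replicate 2.

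MTCYB encodes cytochrome b, the mitochondrially made subunit of complex III. Its ratio was -0.70 and -0.88 in replicate 1 and -1.40 and -1.51 in replicate 2, with a mean of -1.12 ± 0.47. The normalized log2 intensity was 11.42 and 10.82 in farnesol cells, against 12.20 and 12.28 in vehicle cells. As for MTCO1, the farnesol cells of replicate 2 were lowest and the vehicle cells lay close together. MTND1, a complex I subunit near the quinone-binding end of the membrane arm, had ratios of -0.45 and -0.54 in replicate 1 and -1.16 and -1.12 in replicate 2. Its mean was -0.82 ± 0.46, and its normalized log2 intensity was 8.96 and 8.51 in farnesol cells, against 9.45 and 9.66 in vehicle cells. Both genes were low on all 4 arrays.

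MTND2, MTND4 and MTND5 encode the antiporter-like subunits of the membrane arm of complex I, thought to carry out proton pumping. Their groups overlapped. MTND2 had ratios of 0.40 and 0.34 in replicate 1 and -0.31 and -0.43 in replicate 2, and a mean of -0.0013 ± 0.52. MTND4 had 0.18 and 0.20 in replicate 1 and -0.76 and -0.80 in replicate 2, and a mean of -0.30 ± 0.68. MTND5 had 0.19 and 0.0058 in replicate 1 and -0.67 and -0.70 in replicate 2, and a mean of -0.29 ± 0.56. For each of these, the dye-exchanged arrays shared a sign and the replicates had opposite signs. The spread between replicates was larger than the mean ratio in all 3 genes.

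**Figure D1:**
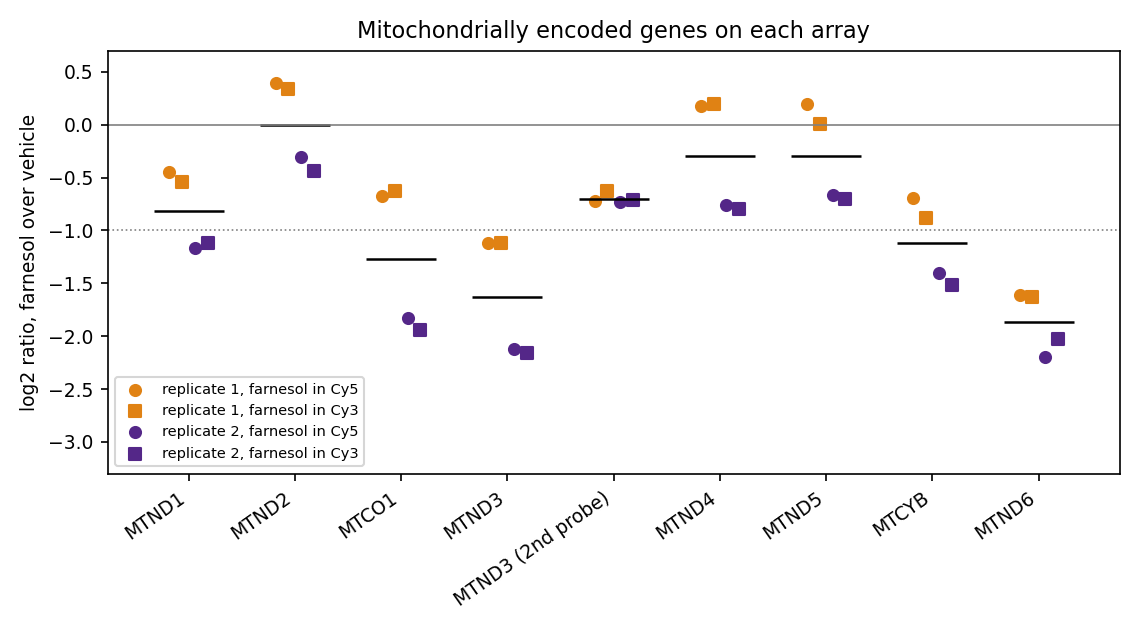
Log2 ratio of farnesol over vehicle for each of the 9 probes on each of the 4 arrays. Circles and squares mark farnesol in Cy5 and in Cy3, colours mark the replicates, black bars are means over replicates and the dotted line marks 2-fold lower. Heavy-strand genes are drawn in their order along that strand, with MTND6 last, and replicate 2 lies below replicate 1 for every gene.

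The order of the genes by ratio was similar in the replicates while the size was not. In replicate 1 the order from the lowest was MTND6, MTND3, MTCYB, MTCO1, MTND1, MTND5, MTND4 and MTND2. In replicate 2 it was MTND3, MTND6, MTCO1, MTCYB, MTND1, MTND4, MTND5 and MTND2. MTND1 and MTND2 held the same place in each, and neighbours exchanged places elsewhere. These orders use the brighter MTND3 probe. The second MTND3 probe had -0.67 in replicate 1 and -0.72 in replicate 2, so the place of this gene depends on the probe. Replicate 2 was below replicate 1 for 8 of 8 genes, beside 48.8% of all features.

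The gap between replicates lay mostly in the farnesol channel. Over the 9 probes, the normalized log2 intensity of replicate 2 minus that of replicate 1 ranged from -1.15 to -0.0066 in farnesol cells and from -0.17 to 0.21 in vehicle cells. These levels depend on scaling between the arrays, which the ratios within an array do not. Farnesol and vehicle levels overlapped for the probes of MTND2, MTND4 and MTND5 and did not for the other probes. How often levels overlap over all features was not counted. The genes were picked for their ratios, so this is a description only.

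**Figure D2:**
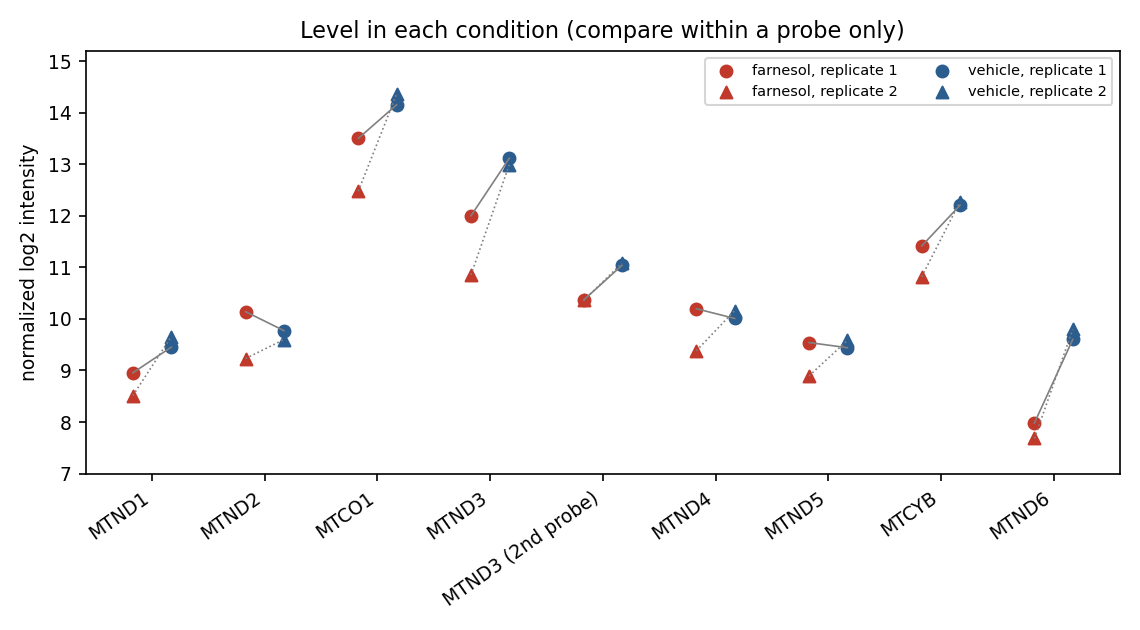
Normalized log2 intensity of each probe in farnesol cells and vehicle cells, by replicate, with lines joining the RNAs hybridised together (solid for replicate 1, dotted for replicate 2). Levels are to be compared within a probe; replicate 2 minus replicate 1 is between -1.15 and -0.0066 in farnesol cells and between -0.17 and 0.21 in vehicle cells.

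MTND6 was set against the 7 heavy-strand genes, since it comes from another promoter. Which strand each probe reads could not be checked. The MTND6 probe was dim in the farnesol channel, at 2.90 to 5.65 times local background over the arrays. The median heavy-strand ratio was -0.50 in replicate 1 and -1.14 in replicate 2. MTND6 minus this median was -1.16 and -1.08 on the arrays of replicate 1, and -1.03 and -0.91 on those of replicate 2. It was the lowest of the 8 genes on 3 of 4 arrays and was second to MTND3 on the array of replicate 2 with farnesol in Cy3. The mean difference was -1.05. MTND6 was known as the lowest gene before this difference was taken, and 2 replicates allow no exact two-sided p below 0.5, so the difference was not tested. Along the heavy strand, from MTND1 through MTND2, MTCO1, MTND3, MTND4 and MTND5 to MTCYB, the mean ratios did not run in one direction. They were -0.82, -0.0013, -1.27, -1.63, -0.30, -0.29 and -1.12 in that order, each from the probe standing for the gene. The second MTND3 probe had a mean of -0.70. Probes under other names had -1.36, -0.53 and -1.46 for the transcripts of MTND1, MTND4 and MTCYB. The profile along the strand therefore depends on the probe.

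In limma's moderated test over all features, 0 of the 8 genes had a Benjamini-Hochberg adjusted p below 0.05, higher or lower, beside 0.0106% of features called higher and 0% called lower. At an unadjusted p below 0.05, 5 of 8 were lower, beside 10.8% of features, and 0 were higher, beside 3.71%. With the 4 arrays in the fit and the replicate as a random block, 5 of 8 were called lower, beside 7.59% of features, and 0 higher, beside 2.54%. That fit takes the dye-exchanged arrays of the same RNAs as separate values, with a correlation shared by all features. It adds no replicate, so its calls are weaker than they look. By the rule of at least 2-fold in the same direction in both replicates, 2 genes were lower, MTND6 and MTND3, beside 0.24% of features. None was higher, beside 0.654%. The nearest gene outside this rule was MTCYB, with -0.79 in replicate 1 and -1.46 in replicate 2, and the nearest inside it was MTND3, with -1.12 in replicate 1. Below 0 in both replicates were 5 of 8 genes, beside 30.2% of features. The genes were chosen on this contrast, so these counts carry no evidence of their own. Over all features this rule gave 185 higher and 68 lower, and with median centring in place of loess it gave 152 higher and 136 lower.

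**Figure D3:**
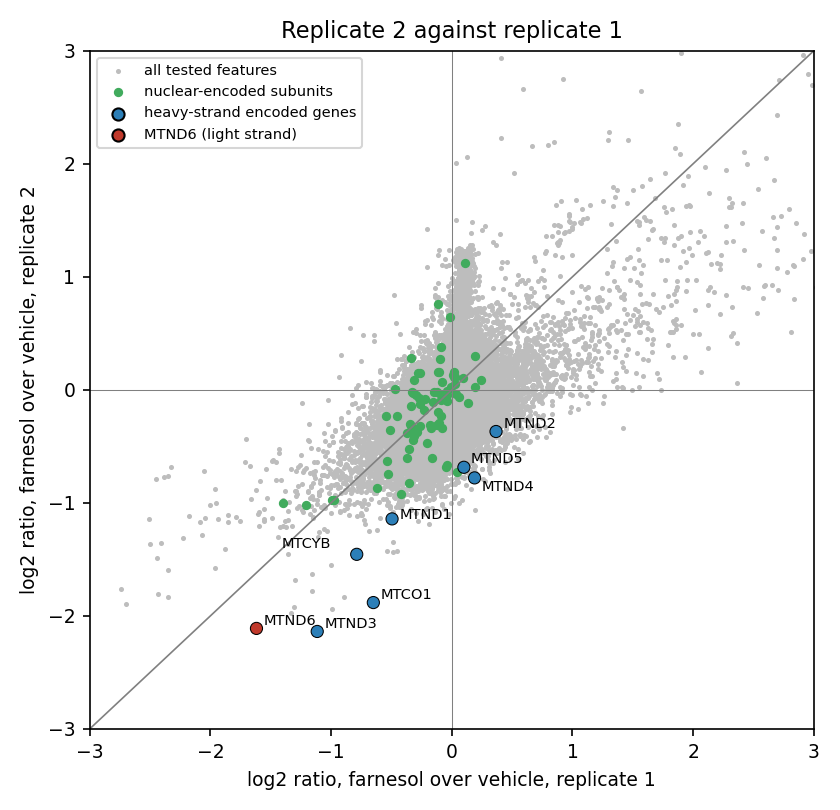
Log2 ratio of farnesol over vehicle in replicate 2 (vertical) against replicate 1 (horizontal), for all tested features (grey, the few beyond 3 on either axis not shown), nuclear-encoded subunits (green), heavy-strand genes (blue) and MTND6 (red). The diagonal marks equal ratios, and all 8 mitochondrial genes lie under it.

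Probes of the same mitochondrial RNAs under other names were set beside the genes' own probes. These probes were chosen after their names were seen on the array. A probe for the clone AF391805, which shares its transcript with MTCYB, had -0.99 in replicate 1 and -1.94 in replicate 2, with a mean of -1.46 ± 0.67. A probe for AK131226, which shares its transcript with MTND1, had -0.89 and -1.83, with a mean of -1.36 ± 0.67. A probe for AF253979, which shares its transcript with MTND4, had -0.29 and -0.76, with a mean of -0.53 ± 0.33. The mean of each of these 3 lay below that of the gene's own probe, although in replicate 2 the AF253979 probe was slightly above the MTND4 probe. Each was below 0 in both replicates. Mean ratios of probes to the same RNA thus differed, most for the MTND3 probes, by 0.93. The means of the genes ran from -1.87 to -0.0013, a wider range. Why probes to the same RNA differed was not tested.

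The remaining probes with mitochondrial descriptions were those of the ribosomal RNA region, the promoter-proximal stretch of the heavy strand. A probe described by the transfer RNAs and 12S and 16S ribosomal RNAs had a mean of -0.93 ± 0.26, with -0.75 in replicate 1 and -1.11 in replicate 2. Another of the same description had 0.03 ± 0.17, with values on both sides of 0. Humanin is a peptide whose reading frame lies within the 16S RNA gene. Its probes had means of -0.78 ± 0.34 and -0.03 ± 0.09, and 3 channel readings of the lower probe were saturated. Of the 7 probes under other names, 5 were below 0 in both replicates, beside 30.2% of features. In 6 of them replicate 2 was below replicate 1, beside 48.8% of features. Nuclear copies of mitochondrial sequence could share a probe's target, and the contribution of such copies was not tested.

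The nuclear-encoded subunits that assemble with these proteins were taken by a pattern of gene names for complexes I to V. Subunits under other names were not included. Of 78 on the array, 77 were tested, as COX7B2 did not pass the filter on dim probes and outlying spots. Their median ratio was -0.17, with -0.17 in replicate 1 and -0.12 in replicate 2, against the 8 mitochondrial genes' -0.97. Below 0 in both replicates were 50 of 77, beside 30.2% of all features, and 10 were above 0 in both, beside 35.4%. By limma 0 were called higher or lower. At an unadjusted p below 0.05, 27 were lower, beside 10.8% of features, and 1 was higher, beside 3.71%. The means of MTND6, MTND3 (brighter probe) and MTCO1 lay below that of every nuclear-encoded subunit tested. The second MTND3 probe, at -0.70, lay above the complex I subunits NDUFC2, at -1.20, and NDUFA9, at -1.11. In replicate 1 alone, MTCO1, at -0.65, and the brighter MTND3 probe, at -1.12, lay above NDUFC2, at -1.40, and NDUFA9, at -1.21. In replicate 2 they lay below both subunits. Replicate 2 was below replicate 1 for 33 of 77, beside 48.8% of features, and the difference ranged from -0.77 to 1.01. In 4 of these subunits it was below -0.49, the smallest gap among the mitochondrial genes. That cut-off comes from the mitochondrial genes themselves, and the share of all features below it was not counted.

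At least 2-fold lower in both replicates were 2 nuclear-encoded subunits, both of complex I, beside 0.24% of features. NDUFC2, an accessory subunit, had -1.36 and -1.43 on the arrays of replicate 1 and -0.90 and -1.11 on those of replicate 2, with a mean of -1.20 ± 0.28. Its other probe gave a mean of -0.29, so the call rests on the brighter probe. NDUFA9, an accessory subunit near the junction of the arms of complex I, had -1.20 and -1.21 in replicate 1 and -1.06 and -0.97 in replicate 2, with a mean of -1.11 ± 0.14. Its other probe gave -1.12. Both genes were lower in replicate 1 than in replicate 2, the opposite order to the mitochondrial genes of the same complex. Limma's adjusted p was 0.192 for NDUFC2 and 0.191 for NDUFA9.

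The extremes of each complex show the range, with genes placed in a complex by their names alone. In complex I, whose 35 tested nuclear-encoded subunits had a median of -0.16, the highest was NDUFB7, an accessory subunit, at 0.32 ± 0.61. Its other probe gave a mean of -0.21, so its sign depends on the probe. In complex II, with no mitochondrial gene and a median of -0.29 over 4 subunits, SDHA, the flavoprotein, had -0.74 ± 0.18 and SDHD, a membrane anchor, had -0.20 ± 0.14. The other probes gave -0.21 for SDHA and -0.59, -0.46 and -0.44 for SDHD, so the order of these subunits depends on the probe. In complex III, with a median of -0.35 over 7, UQCRFS1, the Rieske iron-sulphur protein, had -0.67 ± 0.35 and UQCRB had 0.17 ± 0.11. MTCYB, the partner of these subunits, was below the lowest of them. In complex IV, with a median of -0.0038 over 15, COX7A2L had -0.36 ± 0.45 and COX6A2, an isoform typical of heart and skeletal muscle, had 0.61 ± 0.72. MTCO1 was again below the lowest. In complex V, with a median of -0.25 over 16, ATP5F1, the peripheral stalk subunit b, had -0.98 ± 0.01 and ATP5E, the epsilon subunit, had 0.25 ± 0.07. None of the subunits named here for its extreme value passed limma's adjusted threshold.

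**Figure D4:**
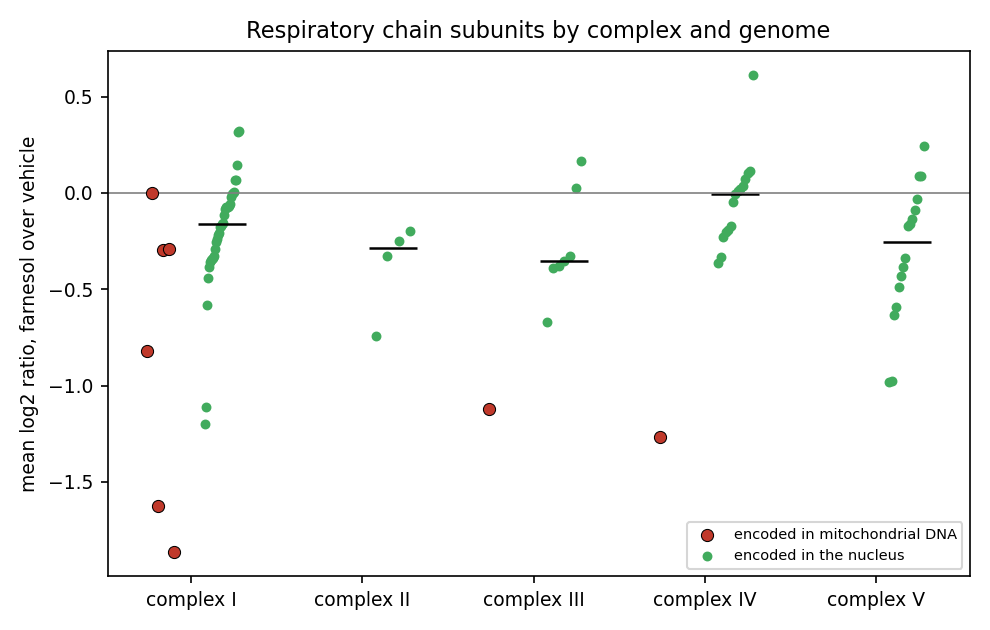
Mean log2 ratio of farnesol over vehicle (2 replicates) for subunits encoded in mitochondrial DNA (red) and in the nucleus (green), by respiratory chain complex. Black bars are the medians of nuclear-encoded subunits. MTCYB and MTCO1 lie below every tested nuclear-encoded subunit of complexes III and IV, and the 6 complex I genes spread from -1.87 to -0.0013.

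Genes that copy, transcribe and process mitochondrial DNA were described from a list of 40, of which 32 were on the array and tested. Their median was -0.19, with 20 below 0 in both replicates, beside 30.2% of features, and 4 above 0 in both, beside 35.4%. By limma 0 were called, and at an unadjusted p below 0.05 the counts were 13 lower, beside 10.8% of features, and 0 higher, beside 3.71%. TFB2M, which opens the promoter for the mitochondrial RNA polymerase, was the lowest and the only gene of this list at least 2-fold lower in both replicates, beside 0.24% of features. It had -2.12 and -2.03 on the arrays of replicate 1 and -1.21 and -1.36 on those of replicate 2. Its mean was -1.68 ± 0.56 (adjusted p = 0.207, limma). TFB2M was lower in replicate 1, while all 8 mitochondrial genes were lower in replicate 2.

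The other transcription genes were spread around 0 or below it. TFB1M, a methyltransferase of the small ribosomal RNA related to TFB2M, had -0.74 ± 0.22 (limma adjusted p = 0.207). MTERF, a factor that binds a termination site after the ribosomal RNA genes, had -0.27 ± 0.22 (limma adjusted p = 0.444). The RNA polymerase POLRMT had -0.21 in replicate 1 and 0.29 in replicate 2, with a mean of 0.04 ± 0.35, and its other probe had a mean of -0.23. TFAM, which packages mitochondrial DNA and takes part in initiation, had 0.06 ± 0.06 for its brightest probe, while its other probes gave -0.36 and -0.35. The sign for TFAM therefore depends on the probe, and it was also negative with median centring, at -0.15.

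The rest of the list was grouped by role. Replication genes had a median of -0.20 over 8, with 6 below 0 in both replicates, beside 30.2% of features, and 0 above, beside 35.4%. RNA processing and stability genes had a median of -0.26 over 13, with 9 below 0 in both and 1 above, beside the same shares. The 1 above was KIAA0391, whose other probe gave a mean of -0.68. Regulators such as NRF1 and PPARGC1A act on nuclear genes for mitochondrial proteins. Their median was 0.011 over 6, with 2 on each side in both replicates, beside the same shares. The lowest processing gene was PNPT1, a polynucleotide phosphorylase of mitochondria, at -0.99 ± 0.14, but its other probe gave -0.10. LRPPRC, which stabilises heavy-strand messenger RNAs, had 0.29 in replicate 1 and -0.59 in replicate 2. PNPT1, LRPPRC and KIAA0391 were named after their values were seen.

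**Figure D5:**
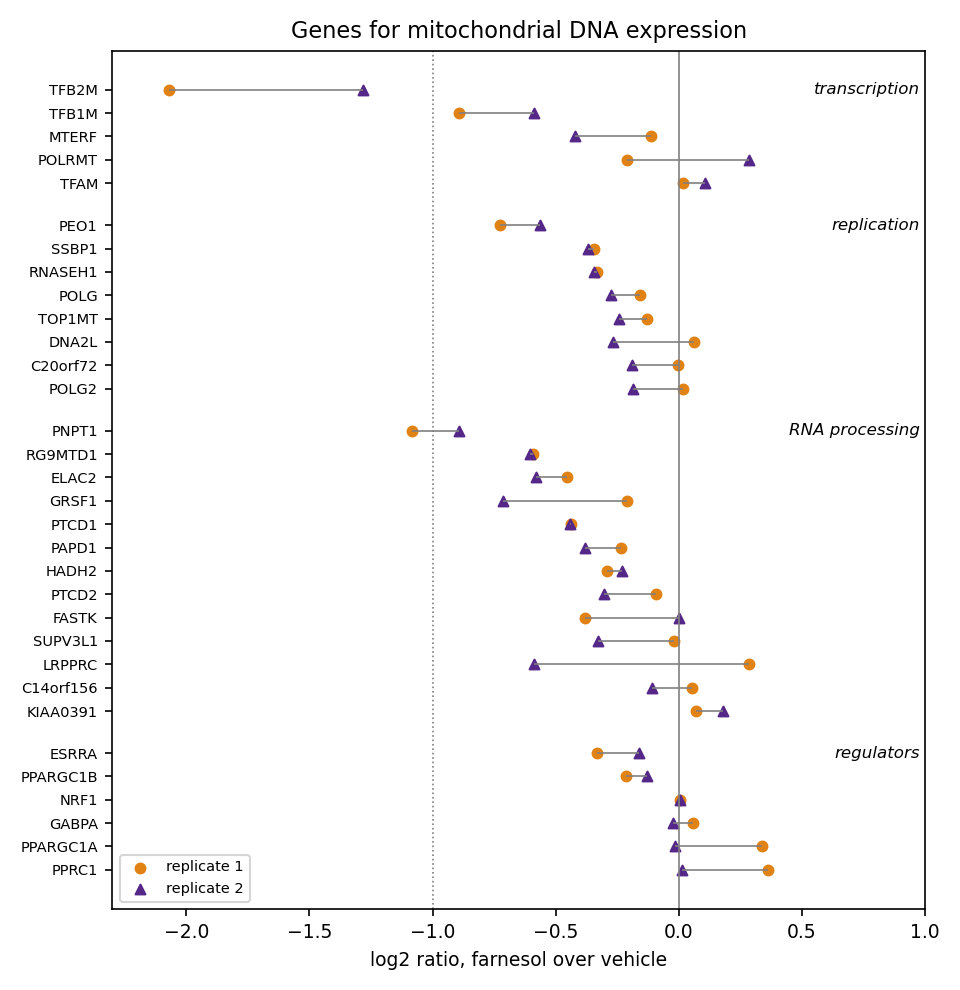
Log2 ratio of farnesol over vehicle in replicate 1 (orange circles) and replicate 2 (violet triangles) for the 32 tested genes of mitochondrial DNA transcription, replication, RNA processing and regulation. The dotted line marks 2-fold lower, and TFB2M is the only gene with both replicates beyond it.

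Genes with the most similar pattern were taken over the 4 arrays, by the Euclidean distance between log2 ratios, among 17833 other named genes. Nearest to MTND6 were GCN1L1 at a distance of 0.768, LBR at 1.04, C20orf3 at 1.07, PARP1 at 1.13 and ITM1 at 1.17. GCN1L1 had -1.31 and -1.29 in replicate 1 and -1.66 and -1.72 in replicate 2, lower in replicate 2 as MTND6 was, and lay above MTND6 on every array. C20orf3, PARP1 and ITM1 were lower in replicate 1 instead. PARP1, a poly(ADP-ribose) polymerase, had -2.32 and -2.39 in replicate 1 and -1.74 and -1.92 in replicate 2. Nearest to the median of the other mitochondrial genes were FBXO21 at 0.091, TFRC at 0.182, PRPF8 at 0.210, FAM20B at 0.211 and NARS at 0.211. FBXO21, an F-box protein, had -0.49 and -0.50 in replicate 1 and -1.11 and -1.08 in replicate 2. These genes were selected for their likeness to this profile, gap between replicates included, so the distances are a description.

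The authors' deposited table lists probes with a p of at most 0.001 and holds ratios of replicate 1 only, by its match to that replicate's scanner values across probes (r = 0.9999, against 0.832 for replicate 2). It lists 8 of the 9 probes, with MTND5 not among them. In the authors' deposited table the ratio of 4 h farnesol over vehicle was 0.280 for MTND6, 0.468 and 0.636 for the MTND3 probes, 0.644 for MTCO1, 0.591 for MTCYB and 0.696 for MTND1. The authors' deposited table gives ratios above 1 for MTND2, at 1.34, and MTND4, at 1.18. It thus shows the replicate in which the ratios of all 8 genes were the higher ones. By the scanner software's own values, MTND6 had a log2 ratio of -1.84 in replicate 1 and -2.62 in replicate 2, lower than the recomputed -1.62 and -2.11.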

How the data were processed

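RNA of H460 cells given farnesol or vehicle was measured on 4 Agilent 2-colour arrays. Total RNA was amplified, labelled with Cy3 or Cy5 and hybridised in pairs, per the labels' protocols; the priming of the amplification is not given in the sources used here. The authors read the scans with Agilent Feature Extraction 8.1.1.1, per the file headers, and deposited spot intensity values, flags and a log10 ratio per spot. They also deposited a table of linear ratio values with p-values for part of the probes.

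Mean and background intensity values were corrected with normexp (offset 50) and normalized by loess within each array in limma 3.58.1 (R 4.3.3). Control and outlying spots had weight 0 in the loess and were dropped after it; saturation was no reason to drop a spot. Ratios were turned to farnesol over vehicle by the dyes in the labels, spots of a probe were averaged, and dye-exchanged arrays were averaged to 1 value per replicate. Levels came from Aquantile normalization between arrays after loess. A probe was kept where it was well above background in at least 1 array of each replicate in the farnesol channel, or likewise in the vehicle channel, and the brightest probe stood for a gene. Replicate means were tested against 0 with lmFit and eBayes, two-sided, with Benjamini-Hochberg adjustment over 28302 features, at 0.05. The test of replicate means and the 2-fold rule were tried on simulated replicate ratios. Background correction, normalization and filtering were not tried in this way. With 2 replicates the residual degrees of freedom were 1 per gene, and the number of arrays limits the precision.

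Named were all mitochondrial genes, the lowest and highest nuclear-encoded subunit of each complex, listed genes at least 2-fold different in both replicates, the transcription genes TFAM, TFB1M, TFB2M, POLRMT and MTERF, and the 5 nearest genes by distance. The genes and lists were chosen with earlier results of these data known. Nuclear-encoded subunits were matched by a pattern of gene names, and the mitochondrial DNA genes by symbol, older symbols included. Of the mitochondrial DNA genes, 8 were not matched. No human sequence or coordinate was used here. The arrays lay on separate slides, and each slide held both conditions.

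The alternatives were other background corrections, no background subtraction, the scanner's processed signals, median centring, no filter or a stricter filter, the mean of probes, saturated spots left out, all 4 arrays with the replicate as a random block, and each replicate left out.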

Additional observations from a re-analysis of the deposited data

How the results depend on the processing

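Under the 9 settings that keep both replicates, the median of the 8 mitochondrial genes ranged from -1.16 to -0.97 and that of the 7 heavy-strand genes from -0.98 to -0.81. MTND6 ranged from -2.23 to -1.84, MTND3 from -1.85 to -1.16, MTCO1 from -1.47 to -1.26, MTCYB from -1.35 to -1.09 and MTND1 from -0.98 to -0.81. MTND2 ranged from -0.20 to 0.05, so its sign is not settled. No filter, the stricter filter, leaving out saturated spots and the random block could not move the ratios of the mitochondrial genes. Their probes were well above background in every channel, with no saturated spots. The mean of probes could move only MTND3. The ranges of the other mitochondrial genes therefore come from the changes of background correction, the processed signals and median centring. MTND6 minus the heavy-strand median was -1.27 with offset 0 and -1.33 with the scanner's processed signals, against -1.05; the cause was not tested. The all-feature median stayed between -0.012 and 0.040. The median of the nuclear-encoded subunits was -0.39 with median centring.

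With the mean of all probes, 1 mitochondrial gene (MTND6) was at least 2-fold lower in both replicates, against 2, because the second MTND3 probe enters. Nuclear-encoded subunits at least 2-fold lower numbered 1 with offset 0, beside 0.417% of features, and 1 with processed signals, beside 0.53%. They numbered 1 with the mean of probes, beside 0.18%, and 4 with median centring, beside 0.481%, against 2 and 0.24%. Genes of mitochondrial DNA expression numbered 2 with median centring, against 1. The cause was not tested. With the replicate as a random block of 4 arrays, limma called 5 mitochondrial genes lower (MTCO1, MTCYB, MTND1, MTND3, MTND6), 20 nuclear-encoded subunits lower and 1 higher, and 10 genes of mitochondrial DNA expression lower, against 0 in each. That fit called 2869 features in all, with 2149 (7.59% of features) lower and 2.54% of features higher, against 3 in all. The paired arrays of a replicate measure the same RNAs, so these added calls do not rest on added replicates. Limma called 72 features with offset 0, 60 with processed signals and 25 with median centring. Leaving out a replicate leaves no test. Counts by the 2-fold rule from 1 replicate alone are not given, as the rule is then looser than with both replicates. The 8-gene median was -0.57 from replicate 1 and -1.30 from replicate 2. Precision is limited by 2 replicates and, for dim probes such as that of MTND6, by signal over background.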
